A study of Mus musculus with 8 samples.

Results

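The genes described here encode the proteins of the cytosolic ribosome. They were chosen by symbol alone, as Rpl or Rps followed by a number, or Rplp0, Rplp1, Rplp2 or Rpsa, with the S6 kinase genes (Rps6k) and pseudogene symbols left out. The rule found 86 of the 21761 genes of the deposited count table, and 84 of them had enough counts to be tested, among 15999 genes tested in all. By symbol alone, 52 of the 86 were placed in the large subunit and 33 in the small subunit, paralogues included. The 33 include Rps4l, which the GENCODE annotation gives as a processed pseudogene. Rps19bp1 encodes a nucleolar partner of the S19 protein and came in through its name. Fau and Gnb2l1 (Rack1), which encode ribosomal proteins under other names, are given separately.

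RNA was sequenced from midbrain dopaminergic neurons of C57BL/6 mice after translating ribosome affinity purification (TRAP), which pulls down tagged ribosomes from 1 cell type and reads the RNA bound to them. The treated group had 4 libraries from mice given MPTP-HCl by intraperitoneal injection, daily for 5 days at 30 mg/kg of free base, and the control group had 4 libraries from mice given saline. MPTP is a toxin whose metabolite enters dopaminergic neurons and blocks mitochondrial complex I. Tissue of both groups was collected 4 days after the last injection, and the comparison asks how ribosome-bound RNA differed after MPTP. The sources used here do not give the driver of the ribosome tag, the tagged protein or the age and sex of the mice. They do not settle either whether the neurons were from the substantia nigra alone or from nigra and ventral tegmental area combined. Nor do they say that each library is a separate animal, so a p-value reflects variation among these libraries, which may be technical. Libraries are named by group and replicate number (MPTP 1 to MPTP 4, saline 1 to saline 4).

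Ribosomal proteins join the ribosomal RNAs in the nucleolus to form the small subunit, which decodes the mRNA, and the large subunit, which forms the peptide bond. Their mRNAs are among the most abundant of a cell, and in mammals they typically start with a 5′ terminal oligopyrimidine (TOP) tract, a C followed by a run of C and T. Through this tract the kinase mTORC1 and the binding protein LARP1 control the translation of the whole family at once, so that TOP mRNAs move between free and ribosome-bound pools together. Neurons also carry ribosomal protein mRNAs into their axons and dendrites.

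Because TRAP reads ribosome-bound RNA, the start sites are shown first. RefSeq start-site sequences on GRCm38.p6 (the mm10 build) were matched by symbol for 65 members. Each line gives 15 bases before the annotated start and 15 from the start on, read 5′ to 3′ on the gene's strand. Capitals mark a tract of C followed by at least 4 C or T that begins within 5 bases of the start. Rps6 is the ribosomal substrate of the S6 kinases, Rpl15 had the lowest log2 fold change, Rpl35 and Rps15a are other members below 0, and Rplp2 and Rps27 are members above 0 with a tract. Rpl41, the member with the highest level per length, and Rps4x are shown as starts without such a tract.
Rps6 (chr4:86857353-86857382, minus strand): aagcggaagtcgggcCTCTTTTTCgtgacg
Rpl15 (chr14:18270972-18271001, minus strand): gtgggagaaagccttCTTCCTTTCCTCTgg
Rpl35 (chr2:39005117-39005146, minus strand): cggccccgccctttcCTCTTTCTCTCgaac
Rps15a (chr7:118116133-118116162, minus strand): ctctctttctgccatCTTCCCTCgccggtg
Rplp2 (chr7:141447636-141447665, plus strand): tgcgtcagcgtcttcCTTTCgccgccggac
Rps27 (chr3:90213634-90213663, minus strand): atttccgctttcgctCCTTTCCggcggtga
Rpl41 (chr10:128549154-128549183, minus strand): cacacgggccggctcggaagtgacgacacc
Rps4x (chrX:102189377-102189406, minus strand): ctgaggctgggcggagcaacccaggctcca

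A tract that begins exactly at the annotated start was found in 13 of the 65 members, or 20.0% (95% exact Clopper-Pearson interval 11.1% to 31.8%), against 3.01% of the 27025 genes in the table. Within 5 bases of the start it was found in 29 members, or 44.6% (32.3% to 57.5%), against 21.2% of all genes. The tracts ran from 5 to 17 bases. An annotated start can lie a few bases from the start used in a cell, so a gene without a match is not shown to lack a tract. Of the members tested, the 29 with a tract within 5 bases had a median log2 fold change of 0.08, with 23 above 0, and the 34 without one had a median of 0.10, with 29 above 0. Members with and without the letters of a TOP tract at the annotated start thus had similar medians, and no test was made of the difference. In the wider window from 250 bases before to 50 bases after the start, CCGGAAGT (other strand ACTTCCGG), the core bound by ETS factors, was found on either strand in 12 members, or 18.5%, against 4.31% of all genes. GCCATNTT (other strand AANATGGC), a core of YY1 sites, was found on either strand in 13 members, or 20.0%, against 6.96%. The letters of ACTTCCGG can overlap a tract such as CTTCC. These matches describe the sequences and not binding.

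No ribosomal protein gene passed the test after MPTP. With edgeR's quasi-likelihood test and a Benjamini-Hochberg adjusted p below 0.05 over all genes, 0 of 84 members were called, where 17 of 15999 genes (0.106%) were called in either direction, 12 higher (0.075%) and 5 lower (0.0313%). DESeq2 and limma voom also called 0 members, where they called 0.331% and 0.113% of all genes. At an unadjusted p below 0.05, 7 members (8.33%) passed, against 8.78% of all genes, so that the members' share in either direction was near the background. Of the 7, 6 were higher and 1 lower, where 4.28% of all genes were higher and 4.5% lower at this p. The lowest adjusted p of a member was 0.415, for Rpl21. In none of the 84 did the 4 MPTP libraries all lie on one side of the 4 saline libraries, a pattern found in 4.19% of all genes.

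The sizes were small and mostly to one side. Of the 84 members, 72 had a log2 fold change (MPTP minus saline) above 0 and 12 below 0, with a median of 0.10 and quartiles of 0.04 and 0.17. Among all genes tested, 50.1% were above 0, 49.9% were below 0 and the median was 0.00056. CPM are counts relative to the scaled library size. Of the 5803 genes whose mean log2 CPM was 5 or more, a level reached by 73 members, 40.9% were above 0 and the median was -0.03. The members ranged from -0.29 for Rpl15 to 0.51 for Rpl21, and 79 of 84 lay within 0.25 of 0. The median standard error (SE) of a single member was 0.10. The large subunit (50 tested) had a median of 0.08 with 42 above 0, and the small subunit (33 tested) a median of 0.11 with 29 above 0. In bulk RNA, fewer cells of a type and less RNA per cell cannot be told apart.

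**Figure D1:**
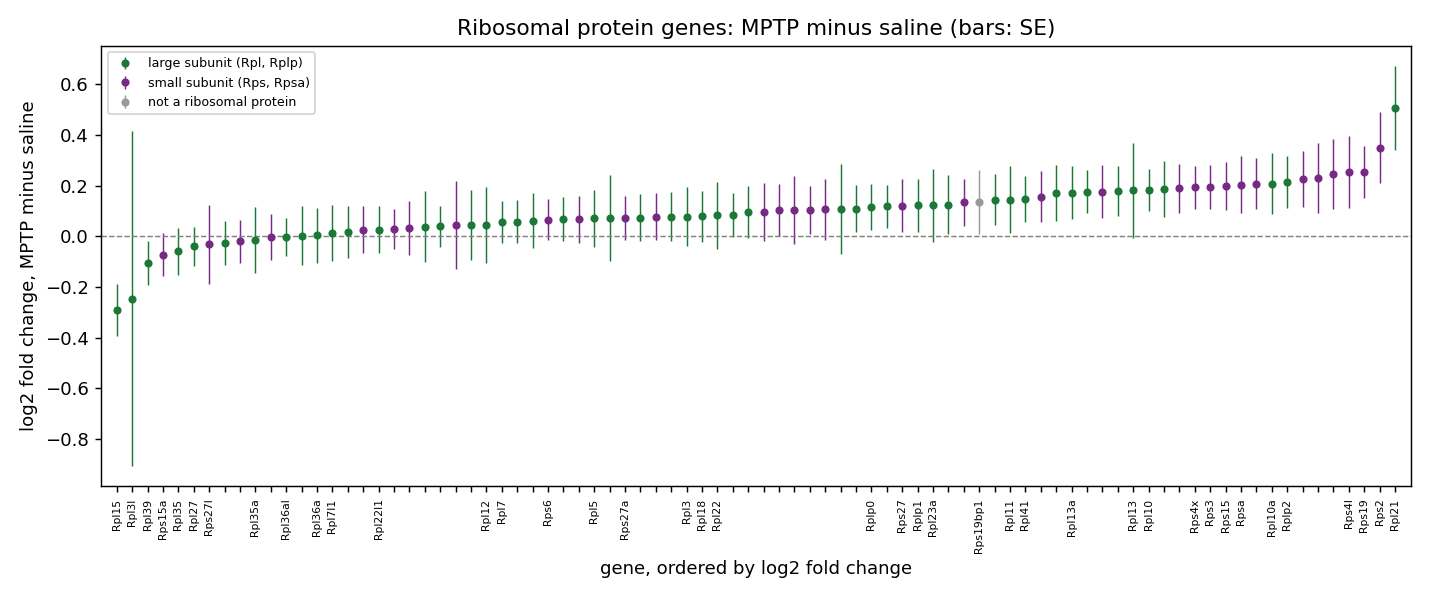
Log2 fold change (MPTP minus saline, with its SE) of each ribosomal protein gene tested, with labels for genes named in the text. Of 84 members, 72 lie above 0 and 12 below, and no member reached an adjusted p of 0.05.

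The shift to one side was largest in a pair of libraries. The members held 1.22%, 1.02%, 1.03% and 0.974% of the counts in MPTP 1 to 4, against 0.864%, 0.960%, 1.09% and 0.964% in saline 1 to 4. The mean share was 1.06 ± 0.108% in MPTP libraries and 0.969 ± 0.0915% in saline libraries (SD, n = 4 per group). The means differed by 0.0919 percentage points. MPTP 1 stood highest and saline 1 lowest, and the other 3 MPTP libraries lay within the range of the saline libraries.

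Taken gene by gene, the median deviation of the members from their mean over the libraries, in log2 CPM, was 0.21, 0.03, -0.02 and -0.04 in MPTP 1 to 4. It was -0.19, -0.03, 0.04 and -0.01 in saline 1 to 4. The mean of these medians was 0.05 ± 0.11 for the MPTP libraries and -0.05 ± 0.10 for the saline libraries (SD, n = 4 per group), a difference of 0.10 that is no larger than the spread between libraries. Over all genes tested these medians lay between -0.00037 and 0.0098. MPTP 1 was the highest of the 8 libraries for 50 of the 84 members, and saline 1 was the lowest for 49. In MPTP 1, 82 members were above their own mean, and in saline 1, 13 were. Large and small subunit genes moved alike, with medians of 0.21 and 0.22 in MPTP 1 and of -0.19 and -0.20 in saline 1.

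Without MPTP 1, the members' median log2 fold change was 0.04 and 22 members lay below 0. Without saline 1 it was 0.05, with 19 below 0. Without both libraries, a choice made after the values were seen, it was 0.0021, with 41 of the members below 0 and 1 at an unadjusted p below 0.05, where 4.58% of all genes were. Without MPTP 3, 13 of 84 members had an unadjusted p below 0.05, where 9.34% of all genes did, and without saline 3, 17 of 84 members, where 16.9% of all genes did. Groups did not overlap for 12 members without MPTP 3, where this held for 8.66% of all genes, and for 9 members without saline 3, where it held for 14.7%. In the other 6 cases that leave out 1 library, this count was at most 3 members, where 6.08% to 7.05% of all genes did not overlap. In each of the 8 cases edgeR called 0 members.

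**Figure D2:**
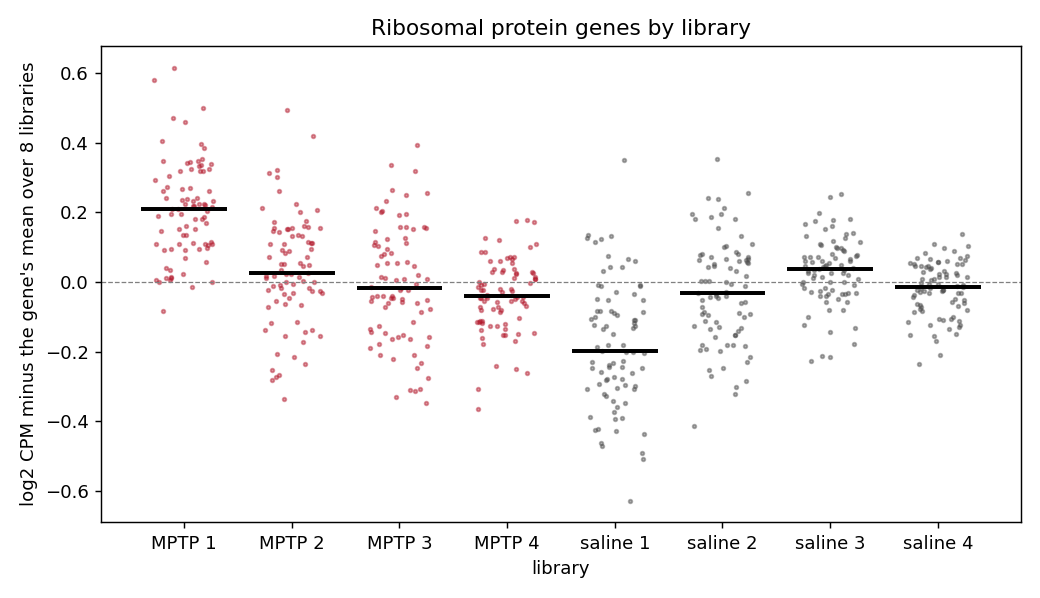
Deviation of log2 CPM from the gene's mean over the 8 libraries, by library, for the 83 members whose mean log2 CPM was 2 or more. MPTP libraries are left of saline libraries. The members sit high in MPTP 1 and low in saline 1, and near 0 in the other 6. Among all 84 members tested, 82 were above their own mean in MPTP 1 and 13 in saline 1.

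The members moved together across libraries of the same group. Their deviations from the group means had a median pairwise correlation of 0.44 over 3486 pairs, which share the same 8 libraries, and 74.4% of pairs were above 0. A principal component analysis of the 83 members whose mean log2 CPM was 2 or more put 57.0% of the variance on a first component, with loadings of 0.63 for MPTP 1 and -0.69 for saline 1. The second component held 26.9%, with loadings of 0.36, 0.57 and -0.50 for MPTP 1, MPTP 2 and MPTP 3 and -0.51 for saline 2, and the groups did not separate on either. The correlation and the component shares are not given for other genes, so they are not shown to be particular to the members. Within groups, a member's log2 CPM had a median SD of 0.17 among MPTP libraries and of 0.14 among saline libraries. For all genes with a mean log2 CPM of 5 or more, these medians were 0.11 for MPTP and 0.14 for saline. After the median of the members in each library was taken out, the members' SD was 0.12 in MPTP and 0.11 in saline.

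**Figure D3:**
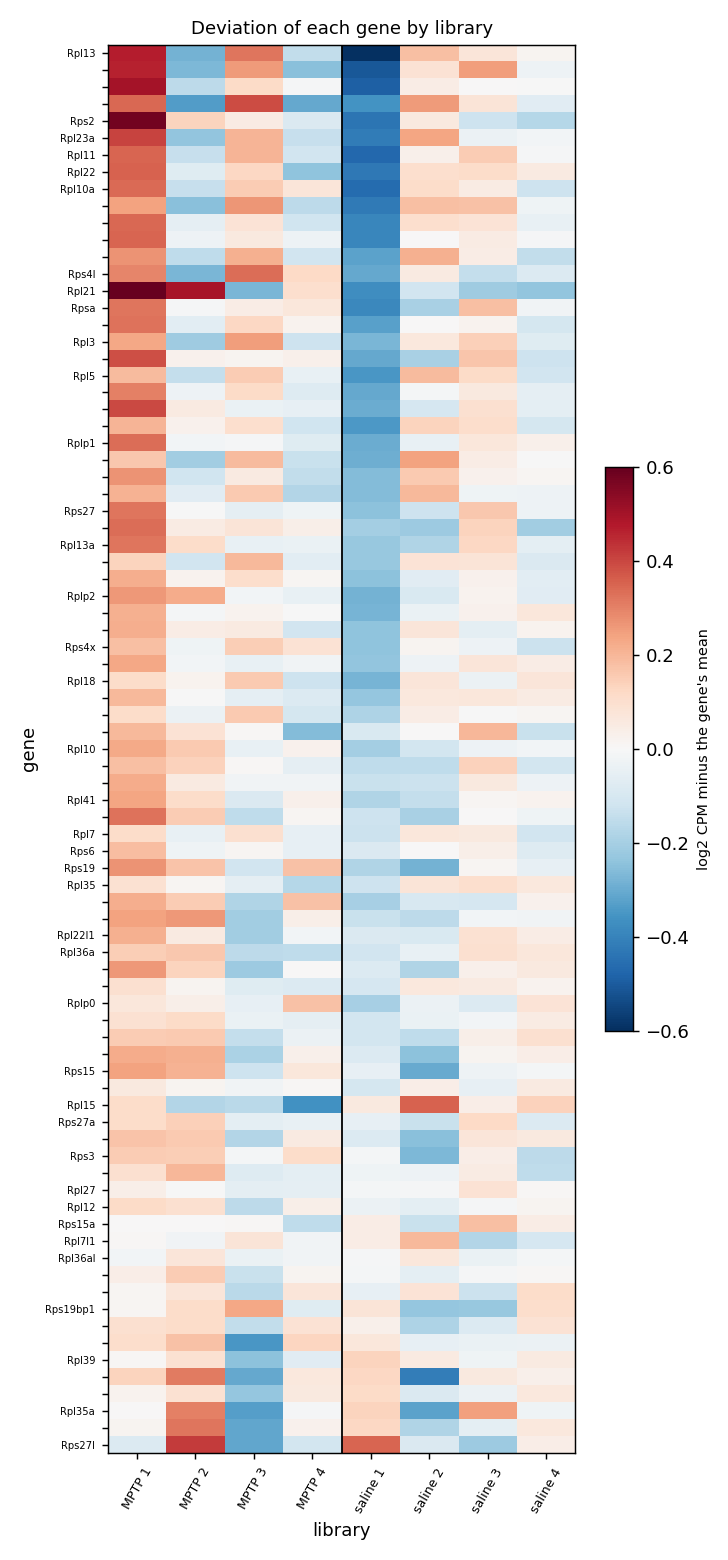
Deviation of log2 CPM from the gene's mean over the 8 libraries, for the 83 members whose mean log2 CPM was 2 or more. Members are in rows (labels for genes named in the text) and libraries in columns, MPTP left of saline. MPTP 1 and saline 1 stand out over most rows in opposite directions, and a smaller group of rows differs between MPTP 2 and MPTP 3.

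Rpl13, a large subunit gene chosen after its values were seen as an example of the first pattern, had 253, 150.3, 228 and 165 CPM in MPTP 1 to 4, against 118, 207, 192 and 185 CPM in saline 1 to 4. MPTP 1 was its highest and saline 1 its lowest library, and the groups overlapped (log2 fold change 0.18, SE 0.19, edgeR adjusted p = 0.824). Rpl35a, also a large subunit gene and an example of the second pattern chosen in the same way, had 129, 159, 102 and 128 CPM in MPTP libraries, against 141, 103, 152 and 126 CPM in saline libraries. MPTP 2 was its highest library and MPTP 3 its lowest, just under saline 2, and its log2 fold change was -0.01 (SE 0.13, edgeR adjusted p = 0.986).

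Longer and shorter members were alike in MPTP 1 and differed in several other libraries. In the 42 members with a principal transcript longer than 705 bases, the median deviation was 0.22, 0.0023, 0.05 and -0.05 in MPTP 1 to 4, and -0.23, 0.01, 0.05 and -0.06 in saline 1 to 4. In the 42 shorter ones it was 0.21, 0.08, -0.06 and -0.03 in MPTP 1 to 4, and -0.13, -0.06, 0.02 and 0.01 in saline 1 to 4. The signs were opposite in MPTP 3, saline 2 and saline 4, and the difference between the length classes was not tested. The median log2 fold change was 0.10 for the longer and 0.08 for the shorter members. Across the members tested, the log2 fold change had a Spearman correlation of 0.06 with transcript length, 0.30 with transcript GC content and 0.05 with level, over genes that share the same libraries.

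Markers of other cells differed between the libraries too. The mean log2 CPM of astrocyte, oligodendrocyte, microglia and endothelial marker lists, averaged over the lists, was 2.52, 2.62, 2.35 and 2.36 in MPTP 1 to 4, against 2.11, 1.78, 2.68 and 1.97 in saline 1 to 4. From highest to lowest value came saline 3, MPTP 2, MPTP 1, MPTP 4, MPTP 3, saline 1, saline 4 and saline 2. In that order the members held 1.09%, 1.02%, 1.22%, 0.974%, 1.03%, 0.864%, 0.964% and 0.960% of the counts. Of the marker genes tested, 22 of 22 astrocyte, 21 of 22 oligodendrocyte, 14 of 20 microglia and 7 of 18 endothelial genes had a log2 fold change above 0, and no marker gene was called or at 0 in every library. An edgeR unadjusted p below 0.05 was found for 7 of 26 dopaminergic and 5 of 22 astrocyte markers, against 8.78% of all genes. It was found for 2 of 22 oligodendrocyte, 4 of 20 microglia, 3 of 18 endothelial and 0 of 7 GABA and glutamate neuron markers. Summed levels were 762.1 to 849 CPM in MPTP and 631 to 873 CPM in saline for astrocyte markers, and 1480 to 1717 CPM in MPTP and 1034 to 2176 CPM in saline for oligodendrocyte markers. They were 74.1 to 82.8 CPM in MPTP and 59.98 to 77.3 CPM in saline for microglia markers, and 23.8 to 35.8 CPM in MPTP and 21.6 to 38.3 CPM in saline for endothelial and mural markers. Markers of GABA and glutamate neurons summed to 411 to 531 CPM in MPTP and 399 to 595 CPM in saline, with 6 of 7 above 0. Dopaminergic markers summed to 14305 to 17508 CPM in MPTP and 13761 to 21206 CPM in saline, with 4 of 26 above 0. Th, which encodes the rate-limiting enzyme of dopamine synthesis, had 2110, 2208, 1992 and 2708 CPM in MPTP libraries, against 3023, 2744, 1847 and 2988 CPM in saline libraries, so the labelled cell type was present in every library. When this non-neuronal score entered the fit as a covariate, the members' median log2 fold change was 0.06, with 17 below 0 and 3 at an unadjusted p below 0.05, where 6.04% of all genes were. The part of these markers in the members' values was not otherwise tested.

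Among the small subunit genes, those at the mRNA entry side had the highest median log2 fold change of the roles looked at, 0.27. This role held only 2 genes, Rps2 and Rps3, and neither was called. Rps2 (chr17:24718116-24721929, plus strand, GRCm38), a protein at the entry of the mRNA channel, had 47.1, 34.5, 32.6 and 29.7 CPM in MPTP 1 to 4, against 23.3, 32.8, 28.9 and 28.0 CPM in saline 1 to 4. MPTP 1 was its highest and saline 1 its lowest library, and the other 6 libraries lay between 28.0 and 34.5 CPM (log2 fold change 0.35, SE 0.14, edgeR adjusted p = 0.494). Rps3 (chr7:99477896-99483738, minus strand), its neighbour at the entry and also a DNA repair nuclease, had 225, 224, 200.4 and 218 CPM in MPTP libraries, against 200.9, 168, 208 and 182 CPM in saline libraries. Of its MPTP libraries, 3 were above every saline library, and MPTP 3 lay below 2 of them (log2 fold change 0.19, SE 0.09, edgeR adjusted p = 0.530). None of the 100-base windows of its principal transcript recurs in another annotated gene, whereas 64.7% of the windows of Rps2 do.

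Rps19 (chr7:24884371-24889806, plus strand), the gene most often mutated in the human anaemia Diamond-Blackfan, had 57.0, 53.2, 43.6 and 53.5 CPM in MPTP libraries, against 41.7, 38.8, 47.7 and 45.7 CPM in saline libraries. MPTP 3 was again the library that overlapped the saline range (log2 fold change 0.25, SE 0.10, edgeR adjusted p = 0.506). Rps4x (chrX:102184941-102189394, minus strand), which is X-linked in the mouse, had 168, 145, 164 and 157 CPM in MPTP libraries, against 125, 149.6, 145 and 135 CPM in saline libraries. Its log2 fold change was 0.19 (SE 0.08, edgeR adjusted p = 0.519), and only MPTP 2 fell within the saline range. Of 9 tested members selected as mutated in human Diamond-Blackfan anaemia, 7 were above 0, with a median of 0.07. This selection is not a full list of such genes, and its lowest log2 fold change was -0.019. Rpl15, Rps15a, Rpl35 and Rpl27, which were all lower, were left out of it. The selection therefore does not show that lower members fall outside the disease genes, nor the share of all such genes above 0.

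Rpsa, also known as the laminin receptor, had a log2 fold change of 0.20 (SE 0.11, edgeR adjusted p = 0.628). Genes of the mRNA exit side (4 of 4 above 0) had a median of 0.16 and those of the decoding side (4 of 4) a median of 0.15, where 72 of all 84 members were above 0. Their median deviations were 0.20 and 0.22 in MPTP 1, and -0.17 and -0.19 in saline 1. Rps15, of the decoding side, had a log2 fold change of 0.20 (SE 0.10, edgeR adjusted p = 0.584).

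Rps6 is the protein whose phosphorylation by the S6 kinases is widely used as a readout of mTORC1 activity. Its RNA had 288, 249, 256 and 245 CPM in MPTP libraries, against 239, 254, 259.7 and 240.5 CPM in saline libraries. Apart from MPTP 1, all libraries lay between 239 and 259.7 CPM, and the log2 fold change was 0.07 (SE 0.08, edgeR adjusted p = 0.857). Rps27a, made as a fusion with ubiquitin, had a log2 fold change of 0.07 (SE 0.09, edgeR adjusted p = 0.851). Rps15a was among the few small subunit genes below 0. It had 142, 143, 143 and 128 CPM in MPTP libraries, against 146, 129.8, 161 and 147 CPM in saline libraries, a log2 fold change of -0.07 (SE 0.09, edgeR adjusted p = 0.850).

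Among the large subunit genes, Rpl21 (chr5:146832890-146837032, plus strand, GRCm38) had the largest log2 fold change of the family, 0.51 (SE 0.17, edgeR adjusted p = 0.415). It had 25.3, 23.2, 13.6 and 17.7 CPM in MPTP libraries, against 12.7, 15.2, 14.2 and 14 CPM in saline libraries. MPTP 1, MPTP 2 and MPTP 4 were above every saline library and MPTP 3 was within the saline range. Of the 100-base windows of its principal transcript, 36.8% recur in other genes, of which there were 40.

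Rpl15 (chr14:18267823-18271391, minus strand) was the member with the smallest p among those lower after MPTP. It had 269, 221, 223 and 194 CPM in MPTP libraries, against 259.9, 318, 256 and 274 CPM in saline libraries. MPTP 1, the library with the highest values of most other members, was the one that overlapped the saline range. Its log2 fold change was -0.29 (SE 0.10, edgeR unadjusted p = 0.0124, adjusted p = 0.449). It lay between -0.41 and -0.22 under the 17 alternatives, with adjusted p from 0.115 to 0.855, and 73.4% of its windows recur in 11 other genes.

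The other members below 0 with the smallest p were closer to 0. Rpl39, a small protein lining the exit tunnel, had 119.7, 127, 100.5 and 114 CPM in MPTP libraries, against 131, 124, 117 and 124 CPM in saline libraries (log2 fold change -0.10, SE 0.09, edgeR adjusted p = 0.761). Rpl35, at the rim of the tunnel exit, had a log2 fold change of -0.06 (SE 0.09, edgeR adjusted p = 0.890), and Rpl27 one of -0.04 (SE 0.08, edgeR adjusted p = 0.917). Of the 8 genes of the exit tunnel and its rim, 6 were above 0, with a median of 0.04.

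The acidic stalk, which recruits the elongation factors, is made of Rplp0 with Rplp1 and Rplp2. All of these were above 0, as were 72 of the 84 members, with a median of 0.12. Their median deviation was 0.26 in MPTP 1 and -0.28 in saline 1. Rplp2 had 54.8, 53.5, 45.2 and 44.4 CPM in MPTP libraries, against 37.7, 43.0, 46.4 and 43.6 CPM in saline libraries (log2 fold change 0.21, SE 0.10, edgeR adjusted p = 0.572). MPTP 1 and MPTP 2 were above the saline libraries and the others were within their range. Rplp0, often used as a reference gene in quantitative PCR, had a log2 fold change of 0.11 (SE 0.09, edgeR adjusted p = 0.749) and Rplp1 one of 0.12 (SE 0.10, edgeR adjusted p = 0.767). Rpl12, at the base of the stalk, had a log2 fold change of 0.05 (SE 0.15, edgeR adjusted p = 0.953).

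Rpl5 and Rpl11 form a particle with the 5S ribosomal RNA, and outside the ribosome they bind Mdm2 and so stabilise p53. Rpl5 had 132, 105, 128 and 112 CPM in MPTP libraries, against 90.7, 131, 125 and 107 CPM in saline libraries (log2 fold change 0.07, SE 0.11, edgeR adjusted p = 0.894). Rpl11 had 118, 84.3, 107 and 85.5 CPM in MPTP libraries, against 66.8, 94.7, 103 and 92.1 CPM in saline libraries (log2 fold change 0.14, SE 0.13, edgeR adjusted p = 0.787). In both genes saline 1 was the lowest library and MPTP 1 the highest, by little for Rpl5.

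Rpl10, a late-joining protein near the peptidyl transferase centre, had 254, 243, 211 and 221 CPM in MPTP libraries, against 189, 201, 213 and 215 CPM in saline libraries (log2 fold change 0.18, SE 0.08, edgeR adjusted p = 0.557). Only MPTP 3 lay within the saline range, and 91.6% of its windows recur in other genes. Rpl3, which reaches the same centre, had a log2 fold change of 0.08 (SE 0.12, edgeR adjusted p = 0.886). Rpl13a, which in human cells also joins a complex that silences inflammatory mRNAs, had one of 0.17 (SE 0.10, edgeR adjusted p = 0.655).

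Rpl10a (chr17:28328471-28331033, plus strand) is the protein that usually carries the fluorescent tag in TRAP mice, and reads of such a transgene could be counted with the gene. Its RNA had 299.6, 215, 264 and 249 CPM in MPTP libraries, against 172, 255, 245 and 217 CPM in saline libraries. It followed the order of most other members, highest in MPTP 1 and lowest in saline 1 (log2 fold change 0.21, SE 0.12, edgeR adjusted p = 0.646). Reads of the gene and of a tagged copy cannot be told apart in gene counts.

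Levels of different members are compared here per length, which depends on the annotated length and on reads that match more than 1 gene. Taking the merged exons of each gene in the GENCODE M21 annotation, Rpl41, whose protein is the smallest of the ribosome, had 1267 ± 119 CPM per kilobase in MPTP and 1144 ± 82.6 in saline (SD, n = 4 per group). Its counts per library were 1016, 931, 812 and 880.2 CPM in MPTP, against 760.2, 782, 868 and 876 CPM in saline, and the groups overlapped (log2 fold change 0.15, SE 0.09, edgeR adjusted p = 0.675). Rplp1 followed with 451 ± 61.3 in MPTP and 414 ± 45.4 CPM per kilobase in saline. Next came Rps15, with 435 ± 48.9 in MPTP and 379 ± 34.1 in saline. Rpl23a, also among the 5 highest, had 305 ± 63.4 CPM per kilobase in MPTP and 280.4 ± 51.0 in saline. Rpl41 lay far above the next member, while Rplp1 and Rps15 differed by less than the larger of their SDs in each group.

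**Figure D4:**
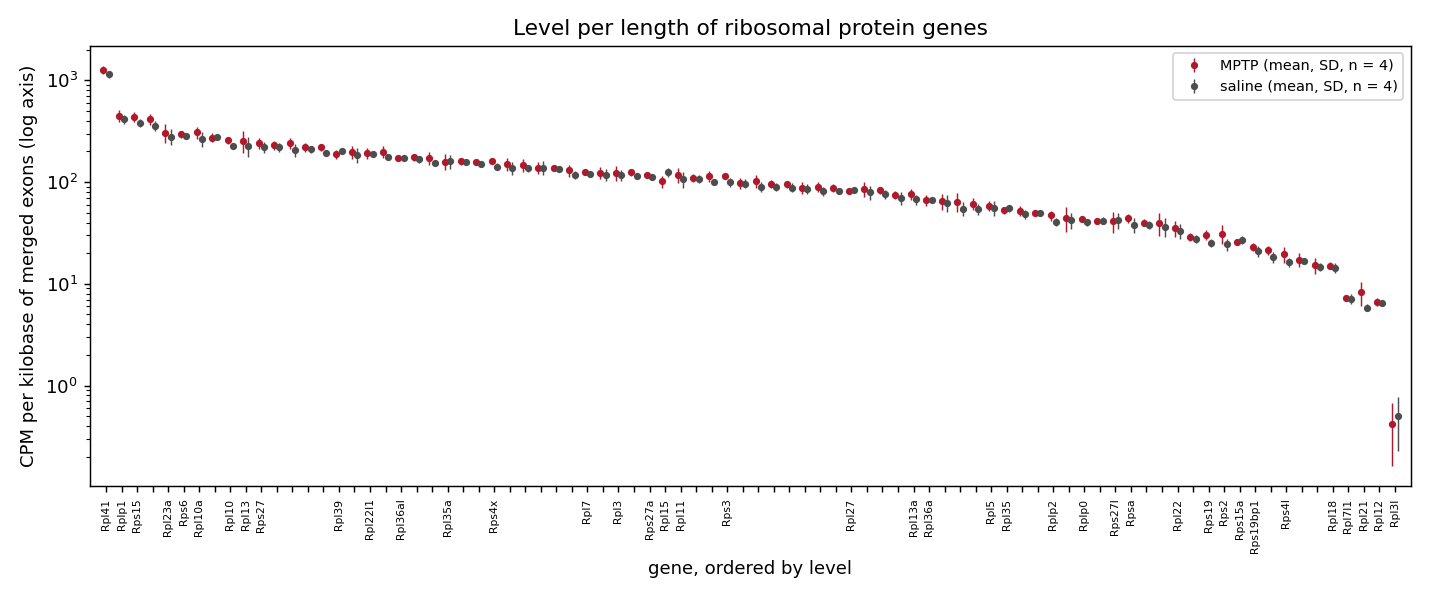
Level of the members in CPM per kilobase of merged exons on a log axis, for MPTP and saline libraries (mean and SD, n = 4 per group), with labels for genes named in the text. Rpl41 is highest at a mean of 1206 over all libraries and Rpl3l lowest at 0.459.

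At the low end, Rpl3l had 0.421 ± 0.258 in MPTP and 0.498 ± 0.268 CPM per kilobase in saline. Rpl12 had 6.65 ± 0.554 in MPTP and 6.44 ± 0.144 in saline, Rpl21 had 8.30 ± 2.21 in MPTP and 5.84 ± 0.429 in saline, and Rpl7l1 had 7.18 ± 0.242 in MPTP and 7.11 ± 0.822 in saline. Rpl12, Rpl21 and Rpl7l1 overlapped in level. Rpl18 had 15.1 ± 1.28 in MPTP and 14.3 ± 1.57 CPM per kilobase in saline. The order depends on the length used. With principal transcript lengths, 3 of the 5 highest and 4 of the 5 lowest genes were shared with this order.

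Reads of ribosomal protein genes are easily confused with those of their many processed pseudogenes. In 76 of the 86 members at least 1 window of 100 bases, the read length, recurs in another annotated gene elsewhere in the genome. The 13 tested members with at most 5% of windows shared had a median log2 fold change of 0.14, with 10 above 0. The 40 with 5% to 50% shared had a median of 0.10, with 36 above 0, and the 31 with more than 50% had a median of 0.08, with 26 above 0. The class with the fewest shared windows includes Rps19bp1, Rps4l and the barely detected Rpl3l, and the difference between the classes was not tested. Introns add a further limit, since 30 members hold 58 small nucleolar RNA genes within their bounds, and 20 share exonic bases with another gene, which unstranded counts cannot separate.

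Paralogues can replace their partner in some tissues. The shares given here are of raw counts and are not corrected for length. They compare MPTP with saline and do not give the relative levels within a pair. Merged exons were 561 bases for Rpl22l1 and 2065 for Rpl22, and 1353 for Rpl36al and 483 for Rpl36a. Rpl22l1 made up 59.6 ± 4.26% of the counts of the pair with Rpl22 in MPTP and 60.7 ± 3.63% in saline (SD, n = 4 per group). Rps27l made up 17.7 ± 3.77% of its pair with Rps27 in MPTP and 19.4 ± 4.39% in saline. Neither share differed by more than its SD.

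Rpl36al, a retrogene, held 87.9 ± 1.08% of its pair with Rpl36a in MPTP and 87.9 ± 0.960% in saline, and its log2 fold change was -0.0022 (SE 0.07, edgeR adjusted p = 0.996). Rpl7l1 held 13.4 ± 0.481% of its pair with Rpl7 in MPTP and 13.7 ± 1.46% in saline. Rps4l, which GENCODE annotates as a processed pseudogene, held 10.4 ± 1.17% of its pair with Rps4x in MPTP and 10.04 ± 0.482% in saline. These shares too differed by less than their SD.

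The remaining paralogues were barely detected. Rpl3l, a paralogue of striated muscle, had 54, 62, 72 and 8 counts in MPTP libraries, against 86, 60, 18 and 36 counts in saline libraries (log2 fold change -0.25, SE 0.66, edgeR adjusted p = 0.943). Rpl39l, known from the testis, had 3, 15, 26 and 0 counts in MPTP libraries, against 0, 1, 0 and 0 counts in saline libraries, and was too low to be tested. Rpl10l, also of the testis, had 0 counts in every library, which allows up to 3 counts or 0.0366 to 0.0444 CPM per library in MPTP and 0.0449 to 0.0571 CPM in saline, for counting error only. Amplified reads without molecular identifiers are not independent molecules.

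Genes around the ribosome did not pass the test either, and none of the lists that follow held a called gene. Their counts at an unadjusted p below 0.05 stand against 8.78% of all genes. Of the ribosomal proteins under other names, Fau had a log2 fold change of 0.18 (SE 0.09, edgeR adjusted p = 0.597) and Gnb2l1 one of 0.16 (SE 0.09, edgeR adjusted p = 0.637). Of 22 translation factors and other TOP mRNAs, 14 were above 0, with a median of 0.05 and 1 at an unadjusted p below 0.05. Within them, log2 fold changes were 0.20 for Eif4b, a helper of the cap-binding helicase, 0.16 for the elongation factor Eef1a1, 0.23 for the poly(A)-binding protein Pabpc1 and 0.13 for the elongation factor Eef2 (edgeR adjusted p from 0.513 to 0.669).

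Regulators of TOP mRNAs were mostly below 0. Of 29 genes of mTORC1 and TOP-binding proteins, 7 were above 0, with a median of -0.06 and 1 at an unadjusted p below 0.05. Among all genes tested, 50.1% were above 0, and among those whose mean log2 CPM was 5 or more, 40.9% were. The difference from the ribosomal protein genes was not tested. The kinase Mtor had a log2 fold change of -0.18 (SE 0.09, edgeR adjusted p = 0.606), and Larp1 one of -0.05 (SE 0.09, edgeR adjusted p = 0.907). The cap-binding protein Eif4e had one of -0.20, and the TOP-binding proteins Tial1 and Tia1 had -0.22 and 0.44 (edgeR adjusted p from 0.539 to 0.628).

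Ribosome biogenesis genes were mostly below 0, where the ribosomal protein genes were mostly above 0, and the difference between the lists was not tested. Among all genes tested, 49.9% were below 0. Of the genes whose mean log2 CPM was 5 or more, 40.9% were above 0. Of 93 biogenesis genes tested, 27 were above 0 and 66 below, with a median of -0.07. Those at an unadjusted p below 0.05 numbered 8, a share near the background. Nop58, of the small nucleolar ribonucleoprotein that methylates ribosomal RNA, had a log2 fold change of -0.38 (SE 0.12, edgeR adjusted p = 0.415). Noc3l, Utp18 and Wdr3, which act in the maturation of pre-ribosomes, had -0.36, -0.39 and -0.47 (edgeR adjusted p from 0.492 to 0.506). When the non-neuronal score entered the fit, the median of this list was 0.015, on the other side of 0.

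Of 22 genes of RNA polymerase I transcription, 10 were above 0, with a median of -0.02, 1 of them at an unadjusted p below 0.05. Twistnb, a polymerase I subunit, had a log2 fold change of -0.49 (SE 0.15, edgeR adjusted p = 0.410). Ttf1, Polr1a and Tcof1 had 0.36, -0.19 and -0.26 (edgeR adjusted p from 0.669 to 0.746). Of 13 host genes of small nucleolar RNAs, 9 were above 0, with a median of 0.13 and 0 at an unadjusted p below 0.05. With the non-neuronal score in the fit this median was -0.06. The snoRNA hosts with the smallest p were 1500012F01Rik (0.14), Snhg11 (0.41), Snhg6 (-0.27) and 1810032O08Rik (0.51), in log2 fold change, with edgeR adjusted p from 0.669 to 0.706.

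Of 30 genes of ribosome quality control, 11 were above 0, with a median of -0.03 and 2 at an unadjusted p below 0.05. Ltn1, the ligase that marks stalled chains, had a log2 fold change of -0.28 (SE 0.11, edgeR adjusted p = 0.506), and Vcp, the ATPase that extracts them, one of -0.26 (SE 0.11, edgeR adjusted p = 0.513). G3bp1 and Rnf14 had 0.21 and -0.19 (edgeR adjusted p = 0.583 and 0.606). Of 13 genes of the p53 checkpoint that ribosomal proteins can trigger, 6 were above 0, with a median of -0.03, or 0.04 with the non-neuronal score in the fit, and 2 were at an unadjusted p below 0.05. The p53 target Cdkn1a had a log2 fold change of -0.48 (SE 0.15, edgeR adjusted p = 0.415) and Bbc3 one of 0.81 (SE 0.37, edgeR adjusted p = 0.545). Mdm2 and Usp7 had 0.20 and -0.12 (edgeR adjusted p = 0.606 and 0.707). Without saline 3, Vcp was called at -0.37 (edgeR adjusted p = 0.0345) and Cdkn1a at -0.59 (edgeR adjusted p = 0.0369).

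**Figure D5:**
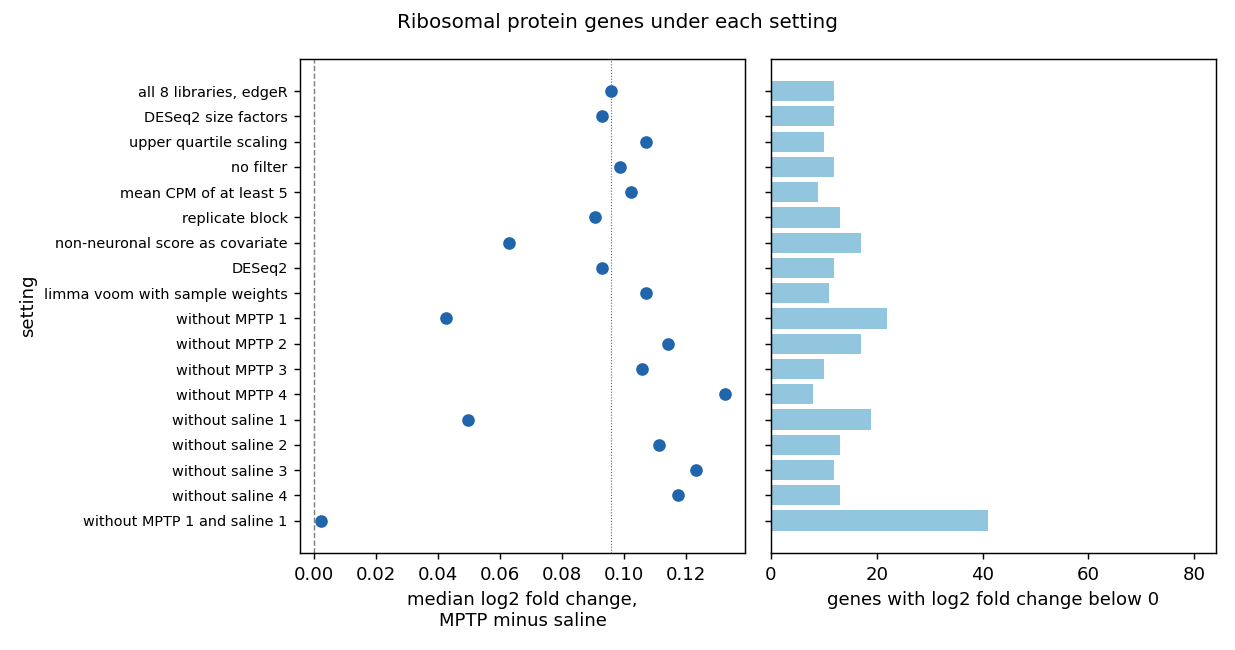
Median log2 fold change of the members and number of members below 0 under each setting, with the 8 cases that leave out 1 library. The median is 0.10 with all libraries, 0.04 without MPTP 1, 0.05 without saline 1 and 0.0021 without both.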

How the data were processed

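The deposited table holds raw counts for each gene in 8 libraries. TopHat2 2.0.8 and the mm10 build are named per the submitters' processing notes; the sources used here do not give the counting tool, annotation or strand setting. Per the labels' protocols, cDNA was amplified by a kit without strand marking, and a pair of libraries shared each sequencing run. Runs are not given per library, so run and group cannot be told apart. Totals were 54192354 to 78892061 counts per library. Date-like symbols (27) were restored by Entrez identifier from RefSeq, and 90 genes had no symbol. No libraries of a group agreed within sampling noise (lowest chi-square per degree of freedom 32.3).

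Counts were fitted as deposited with edgeR 4.0.16 (R 4.3.3): TMM scaling, filterByExpr, robust quasi-likelihood F-test, Benjamini-Hochberg over 15999 genes, threshold 0.05. SE was derived from the log2 fold change and F (its size over the root of F). CPM are relative to TMM-scaled library size, with a prior count of 2 on the log2 scale. The figures of deviations by library used log2 CPM without a prior count. Alternatives were other scalings and filters, a replicate block, a non-neuronal covariate, each library left out, DESeq2 1.42.0 and voom in limma 3.58.1. The fit was tested on simulated data.

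Gene positions, lengths and windows came from GENCODE M21 on GRCm38, where all 86 members were found, and start sites from RefSeq GRCm38.p6. Of 354 genes written in lists, 343 were in the table. Members and lists were chosen with earlier results of these data known. Genes were named by a rule: a fixed list of 30 members, members past the threshold or without overlap, the 6 members per direction with the smallest p, the 5 highest and 5 lowest per length, and up to 4 genes with the smallest p of each other list. Larp1, Rpl13 and Rpl35a were named outside it, after values were seen. Results of 2 genes that the rule names are not reported here.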

Additional observations from a re-analysis of the deposited data

Results flagged for a closer look

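In 6 of the 82 groups of 4 libraries looked at among the named members, 1 library stood apart from the other 3 by Dixon's ratio, the gap to the nearest library over the whole range, past its 95% critical value. Chance gives about 1 in 20 such groups. Rplp1 and Rps27 were high in MPTP 1, with 270.5 CPM against 204 to 214 in the other MPTP libraries (ratio 0.841) and 133 CPM against 103 to 106 (ratio 0.862). Rps15a was low in MPTP 4, with 128 CPM against 142 to 143 (ratio 0.951). Rpl22 and Rpl35 were low in saline 1, with 52.1 CPM against 72.6 to 75.5 in the other saline libraries (ratio 0.895) and 46.7 CPM against 53.3 to 54.7 (ratio 0.841). Rps15 was low in saline 2, with 207 CPM against 246 to 253 (ratio 0.863). The libraries are MPTP 1 or saline 1 in 4 of the 6 cases.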

How the results depend on the processing

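The count of 0 called members was the same under every alternative, and the members' median log2 fold change was above 0 in each, from 0.0021 without MPTP 1 and saline 1, chosen after seeing the data, to 0.13. Without 1 library it ranged from 0.04 to 0.13. Members below 0 numbered 8 to 22 without 1 library and 41 without both, against 12. Members at an unadjusted p below 0.05, 7 in all libraries, are given with the share of all genes under the same setting. They were 11 with upper quartile scaling (8.82%), 11 with no filter (9.21%), 3 with the non-neuronal covariate (6.04%), 15 with voom (12.2%), 1 without both libraries (4.58%) and 2 to 17 without 1 library (5.98% to 16.9%). Non-overlapping members, 0 in all libraries, were 1 with upper quartile scaling (4.33%), 4 without both (9.41%) and 0 to 12 without 1 library (6.08% to 14.7%). With principal transcripts, 3 of the 5 highest levels per length were shared. With the covariate, list medians were 0.015 for ribosome biogenesis, -0.057 for snoRNA hosts and 0.042 for the p53 checkpoint. Quality control and p53 checkpoint genes called ranged from 0 to 1 without 1 library. The cause of these changes was not tested.

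Same-numbered libraries did not deviate together (correlations -0.02, -0.12, -0.03 and 0.04), and 1 of 8 libraries correlated best with its own number. These values gave no sign of pairing by replicate number. They cannot exclude it, since sequencing runs are not given per library. With the replicate block, the median was 0.09, with 13 members below 0 and 3 at an unadjusted p below 0.05, where 6.87% of all genes were.

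Among 39 named members tested, 17 changed sign under some of the 17 alternatives. Rpl36al was 0.010 with upper quartile scaling, 0.0035 with the filter at a mean CPM of 5 and 0.015 with the covariate. Rpl36a was -0.0018 with the replicate block. With the covariate, Rpl36a was -0.082, Rpl22l1 -0.054, Rps27a -0.036 and Rpl3l 0.31. Without MPTP 1 and saline 1, values were -0.069 for Rpl11, -0.016 for Rpl18, -0.14 for Rpl22, -0.070 for Rpl22l1, -0.11 for Rpl23a, -0.062 for Rpl3, -0.084 for Rpl36a, 0.12 for Rpl3l, -0.075 for Rpl5, -0.0041 for Rpl7, -0.052 for Rplp1, -0.034 for Rps27, 0.12 for Rps27l and -0.0076 for Rps6. Without 1 library, ranges were -0.030 to 0.17 for Rpl22, -0.043 to 0.096 for Rpl22l1, -0.0025 to 0.23 for Rpl23a, -0.051 to 0.056 for Rpl36a, -0.027 to 0.021 for Rpl36al, -0.56 to 0.11 for Rpl3l, -0.018 to 0.15 for Rpl5, -0.040 to 0.087 for Rpl7l1 and -0.20 to 0.094 for Rps27l.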
